A study of Homo sapiens with 6 samples.

Results

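The YAP and TEAD genes examined here are 10 of the 52401 genes in the deposited tables: the co-activator genes YAP1 and WWTR1, the DNA-binding partner gene TEAD1, the target genes CTGF, CYR61 and ANKRD1, the angiomotin genes AMOT, AMOTL1 and AMOTL2, and the kinase gene LATS2. They were picked by name, with the group means of these same data in view, so the group means and the deposited p-values below describe the genes and are not independent evidence. Matching was by gene symbol, with CTGF and CYR61 under these older names, and all 10 were found.

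RNA came from MCF10A, an immortalised, non-tumorigenic human mammary epithelial line, in 2 groups of 3 libraries. Control cells carried mCherry alone, from a retroviral vector selected with puromycin. Flotillin cells carried flotillin 1 with an HA tag and flotillin 2 fused to mCherry, each from its own retroviral vector, and were selected with puromycin and hygromycin. All cells grew in medium with horse serum, insulin, EGF, hydrocortisone and cholera toxin. Each group is 1 stable line, and the labels do not say whether it is a clone. The effects of flotillins, of a further vector, of hygromycin and of any other difference between the 2 lines therefore cannot be told apart. Between the authors' means FLOT1 was 11.4-fold and FLOT2 11.01-fold higher in flotillin cells.

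YAP and its paralog TAZ, encoded by WWTR1, are transcriptional co-activators that do not bind DNA themselves and act largely through the TEAD factors. In the Hippo pathway the MST and LATS kinases phosphorylate both proteins, which keeps them out of the nucleus or sends them to degradation, and angiomotins at cell junctions hold them in the cytoplasm. Dense epithelial sheets are a textbook setting of low YAP and TAZ activity, and spread or stretched cells one of high activity. CTGF, CYR61 and ANKRD1 are the target genes most often used as a readout, and LATS2 and AMOTL2 are targets that also restrain the pathway. RNA counts measure neither phosphorylation nor localisation.

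The target genes were the members with the largest differences, and the co-activators differed from each other. CTGF was 16.5-fold, CYR61 5.16-fold and ANKRD1 26.9-fold higher in flotillin cells between the authors' means, the last against only 0, 5 and 12 control reads. WWTR1 was 2.71-fold and YAP1 1.36-fold higher, with only WWTR1 past the threshold. The authors' deposited table of means puts 7 of the 10 genes under an adjusted p of 0.05, all 7 higher in flotillin cells, beside 23.6% of all 19733 genes tested (11.6% higher). YAP1, AMOTL1 and AMOT did not pass. The authors' Tuxedo table called 5 of 9, all higher, beside 16.9% of its 17022 genes (6.93% higher), and limma on the recovered libraries 6 of 9, all higher, beside 23.2% of 15839 genes (12.1% higher). The groups did not overlap for any of the 9 members among those 15839 genes, beside 45.1% of all of them (24.1% above and 21.0% below), and AMOTL1 alone lay below. AMOT, outside them, had 5.07 normalized counts in its lowest flotillin library and 4.94 in its highest control library, each from 5 reads.

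Values per library below are read counts divided by the library's size factor, recovered from the deposited means as described under the processing. In bulk RNA, fewer cells of a type and less RNA per cell cannot be told apart. The plot of normalized counts by library shows each value.

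**Figure D1:**
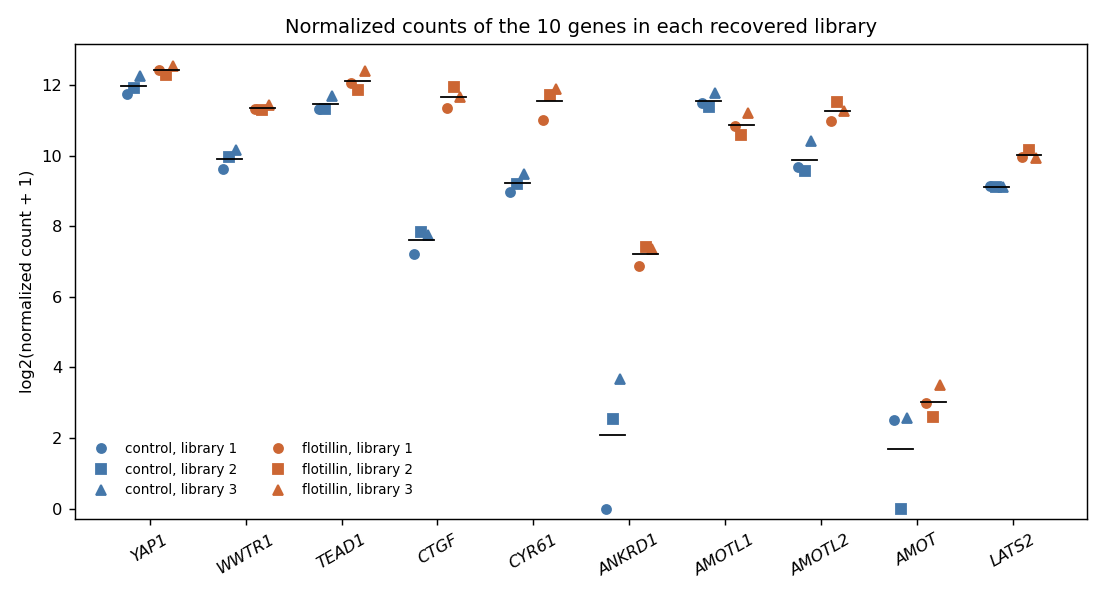
Normalized counts of the 10 genes as log2(normalized count + 1), in 3 control libraries (blue) and 3 flotillin libraries (orange), with the symbol giving the library and the bar the group mean. The groups do not overlap for the 9 genes with a mean of at least 10, beside 45.1% of all such genes, and only AMOTL1 lies lower in flotillin cells. AMOT had 5 reads in its lowest flotillin library and 5 in its highest control library, so only the size factors part its groups.

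YAP1 encodes the co-activator YAP (GRCh37 chromosome 11, 101981210 to 102104154). It had 3418, 3827 and 4886 normalized counts in control libraries and 5500, 5019 and 5932 in flotillin libraries. The lowest flotillin value lay just above the highest control value, 1.03 times as high. Means were 4044 ± 757 and 5483 ± 457 (SD, n = 3), and the authors' deposited table lists a log2 fold change of 0.43 (adjusted p = 0.183). The Tuxedo table of the authors put YAP1 at 28.3 and 37.0 FPKM, a level per transcript length, with a q-value of 0.321. Limma on all recovered libraries gave an adjusted p of 0.121, and without control library 3 an adjusted p of 0.0284. YAP1 also passed in limma without library 3 of both groups (adjusted p = 0.0298) and, with all libraries kept, with a term for library 3 (adjusted p = 0.0317). Over all 15839 genes the fits in which YAP1 passed called 6347, 6988 and 7270 in this order, against 3676 in the first.

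WWTR1 encodes TAZ (chromosome 3, 149235022 to 149454501). Its normalized counts were 783, 998 and 1133 in control and 2578, 2527 and 2778 in flotillin libraries. The groups stood well apart, the lowest flotillin value being 2.23 times the highest control value. Means of 971 ± 177 and 2628 ± 132 (SD, n = 3) gave WWTR1 a rise of 1.40 on the log2 scale in the authors' deposited table (adjusted p = 1.10e-07). The authors' Tuxedo table gave a smaller log2 fold change of 1.09 and a q-value of 0.0669, which ends the call there. A noncoding transcript listed at the same locus, RP11-255N4.2, went from an authors' mean of 19.6 to 64.2, and whether the counting used strand is not stated, so reads of an overlap between them cannot be told apart.

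The balance of the co-activators therefore differed between the lines. WWTR1 stood at 0.229, 0.261 and 0.232 of the YAP1 normalized count in control libraries and at 0.469, 0.504 and 0.468 in flotillin libraries. The 3 libraries of a group lay close together in this ratio, 0.241 ± 0.017 in control and 0.480 ± 0.020 in flotillin cells (SD, n = 3). Per transcript length, in the authors' FPKM, WWTR1 was at 0.764 of YAP1 in control cells and at 1.25 times YAP1 in flotillin cells. Summed over both genes the FPKM went from 49.98 to 83.2, 1.66-fold, and the YAP1 part of the sum from 56.7% to 44.4%.

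TEAD1 encodes one of the TEAD factors that carry YAP and TAZ to DNA (chromosome 11, 12695969 to 12966298). Control libraries held 2562, 2570 and 3310 normalized counts and flotillin libraries 4248, 3734 and 5391. Libraries numbered 3 were the highest of each group, and the groups did not overlap. TEAD1 rose from 2814 ± 430 to 4458 ± 848 (SD, n = 3), or 0.64 on the log2 scale in the authors' deposited table (adjusted p = 0.0467). This call was lost in the authors' Tuxedo table (q-value 0.0743) and in limma on the recovered libraries (adjusted p = 0.0534). Limma without control library 3, a fit that called 6347 of 15839 genes against 3676 with all libraries, gave TEAD1 an adjusted p of 0.0198.

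The other TEAD genes did not share this difference at the threshold. TEAD2 went from 530 ± 63 to 405 ± 16 normalized counts (SD, n = 3) and did not pass in the authors' deposited table (adjusted p = 0.216). TEAD3 had 536 ± 74 and 537 ± 49, and TEAD4 had 327 ± 85 and 323 ± 60 (SD, n = 3). Per length, the 4 TEAD genes together had 41.7 FPKM in control and 43.9 FPKM in flotillin cells, and TEAD1 made up 29.1% and 42.0% of these sums. The cofactor genes VGLL3 and VGLL4, whose proteins bind TEADs in place of YAP, were listed at log2 fold changes of 0.39 (adjusted p = 0.563) and 0.29 (adjusted p = 0.381) in the authors' deposited table. VGLL2 was listed at 0 in both groups, and VGLL1 at 5.25 in control cells and 0 in flotillin cells (authors' means). In limma on the recovered libraries 0 of 6 TEAD and cofactor genes passed, and TEAD1 alone was under 0.05 before adjustment. The authors' Tuxedo table likewise called 0 of 6, with 1 under 0.05 before adjustment. Without control library 3, limma called 2 rises in this list, beside 6347 of all 15839 genes in the same fit.

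**Figure D2:**
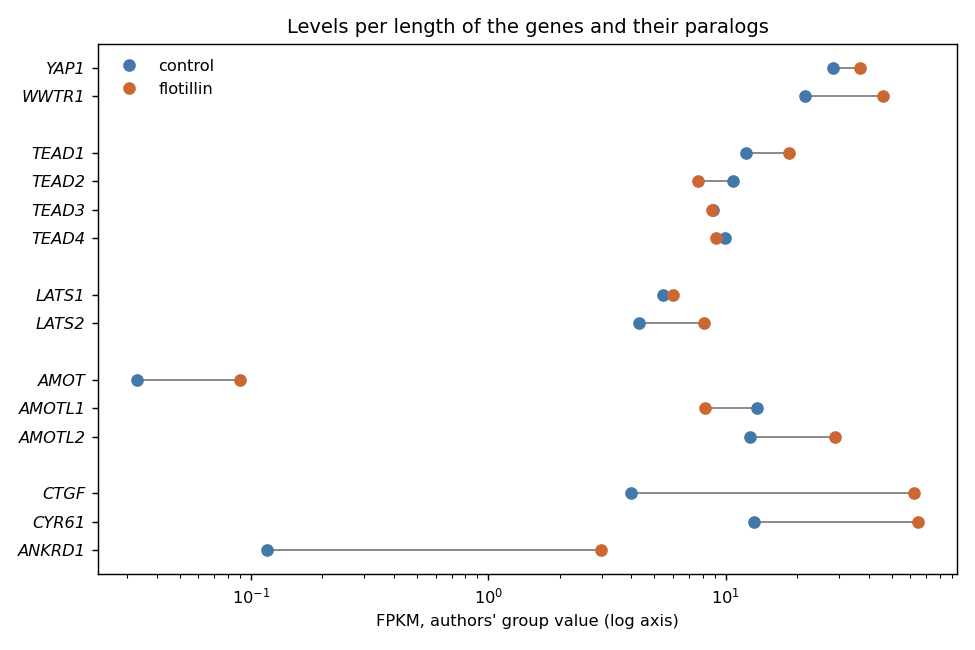
Level per transcript length (authors' FPKM, log axis) of the members and of their paralogs TEAD2, TEAD3, TEAD4 and LATS1 in control (blue) and flotillin (orange) cells. CTGF moved from 3.99 to 62.4 FPKM and ended beside CYR61 at 64.9, while AMOT stayed under 0.1 FPKM in both groups.

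CTGF encodes connective tissue growth factor, a secreted matricellular protein of the CCN family. The gene's deposited locus, chromosome 6, 132269316 to 132398533, may be wider than the gene itself. The 250 bases before its transcription start are shown, from RefSeq in GRCh38.p14 on the minus strand at chr6:131951373-131951622. Capitals mark GGAATG, or its complement CATTCC, the core of the element that TEAD factors bind.
CTGF: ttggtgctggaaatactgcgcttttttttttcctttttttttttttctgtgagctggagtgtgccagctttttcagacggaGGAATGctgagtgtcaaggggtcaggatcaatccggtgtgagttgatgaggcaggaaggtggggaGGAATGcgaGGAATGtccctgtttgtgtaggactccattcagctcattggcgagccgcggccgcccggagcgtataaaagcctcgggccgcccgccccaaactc

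This stretch held 3 matches, all as GGAATG, which begin 169, 104 and 95 bases before the start. Of 35116 RefSeq promoters of this length, 11.9% held at least 1 match on either strand, 0.928% at least 2 and 28 promoters (0.0797%) at least 3. A match of letters is a description and not evidence of binding, which was not measured here. No AP-1 element (TGACTCA or TGAGTCA) lay in this window, and 4.20% of all these promoters held at least 1.

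Control libraries held 148, 229 and 215 normalized counts of CTGF and flotillin libraries 2603, 3925 and 3233. Even the lowest flotillin value was 11.4 times the highest control value. CTGF rose from 197 ± 43.2 to 3254 ± 661 (SD, n = 3), which the authors' deposited table gives as 3.89 on the log2 scale (adjusted p = 3.81e-40). In all 16 alternatives the call stood, with log2 fold changes from 3.85 to 4.19. A noncoding transcript with an overlapping deposited locus, RP11-69I8.3, was at 0 in control cells and 0.343 in flotillin cells (authors' means).

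CYR61 encodes the related CCN protein, also secreted and integrin-binding (chromosome 1, 86046444 to 86049645). It had 502, 581 and 708 normalized counts in control libraries and 2049, 3365 and 3820 in flotillin libraries. Flotillin library 1 was the lowest of its group for both CCN genes, and still 2.89 times the highest control value for CYR61. CYR61 rose from 597 ± 104 to 3078 ± 920 (SD, n = 3), or 2.26 on the log2 scale in the authors' deposited table (adjusted p = 6.60e-12).

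Control cells had more CYR61 than CTGF, and flotillin cells near equal amounts. Per transcript length CTGF was at 0.305 of CYR61 in control and at 0.962 in flotillin cells, from the authors' FPKM. The ratio of their normalized counts was 0.331 ± 0.054 in control libraries and 1.09 ± 0.22 in flotillin ones (SD, n = 3), from 0.295 to 0.393 and from 0.846 to 1.27.

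Of the other CCN genes, NOV and WISP2 rose as well. NOV, a further secreted CCN protein gene, went from 82.5 ± 19.6 to 205 ± 31 normalized counts (SD, n = 3; adjusted p = 0.000400 in the authors' deposited table). WISP2 went from 62.3 ± 46.6 to 154 ± 24 (SD, n = 3; adjusted p = 0.0432 in the authors' deposited table), and limma gave WISP2 an adjusted p of 0.0573. WISP1 and WISP3 had authors' means under 2 in both groups and no adjusted p. These genes were named after their values were seen.

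ANKRD1 encodes an ankyrin repeat protein found in the nucleus and in muscle sarcomeres (chromosome 10, 92671853 to 92681033). Its promoter held 2 GGAATG matches, which begin 220 and 128 bases before the start, and is shown beside CTGF's because both are long-standing reporter genes of YAP and TEAD. The stretch lies at chr10:90921088-90921337 in GRCh38.p14, on the minus strand.
ANKRD1: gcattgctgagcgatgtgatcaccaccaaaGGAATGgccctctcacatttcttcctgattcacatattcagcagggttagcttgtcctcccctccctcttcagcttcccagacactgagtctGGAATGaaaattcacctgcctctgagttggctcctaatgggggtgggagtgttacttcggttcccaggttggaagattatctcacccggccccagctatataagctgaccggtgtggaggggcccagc

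ANKRD1 had 0, 5 and 12 reads in control libraries and 117, 166 and 157 in flotillin libraries. The count of 0 allows up to 2.85 normalized counts in control library 1, counting error only. On the normalized scale ANKRD1 rose from 5.54 ± 5.96 to 149 ± 28 (SD, n = 3), and the lowest flotillin value was 9.88 times the highest control value. The authors' deposited table lists it at 4.06 on the log2 scale (adjusted p = 1.29e-13). With so few control reads the size of ANKRD1's difference moved with the fit, although its call did not. Limma gave 5.14 on the log2 scale, 4.02 and 5.53 with pseudocounts of 5 and 0.5, 4.10 without control library 1 and 5.94 without control library 3. Its level stayed far below that of the CCN genes, at 0.117 FPKM in control and 2.98 FPKM in flotillin cells. ANKRD2 and ANKRD23, its paralogs of the muscle ankyrin repeat family, did not pass in the authors' deposited table, at -0.18 (adjusted p = 0.832) and -0.51 (adjusted p = 0.454) on the log2 scale.

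**Figure D3:**
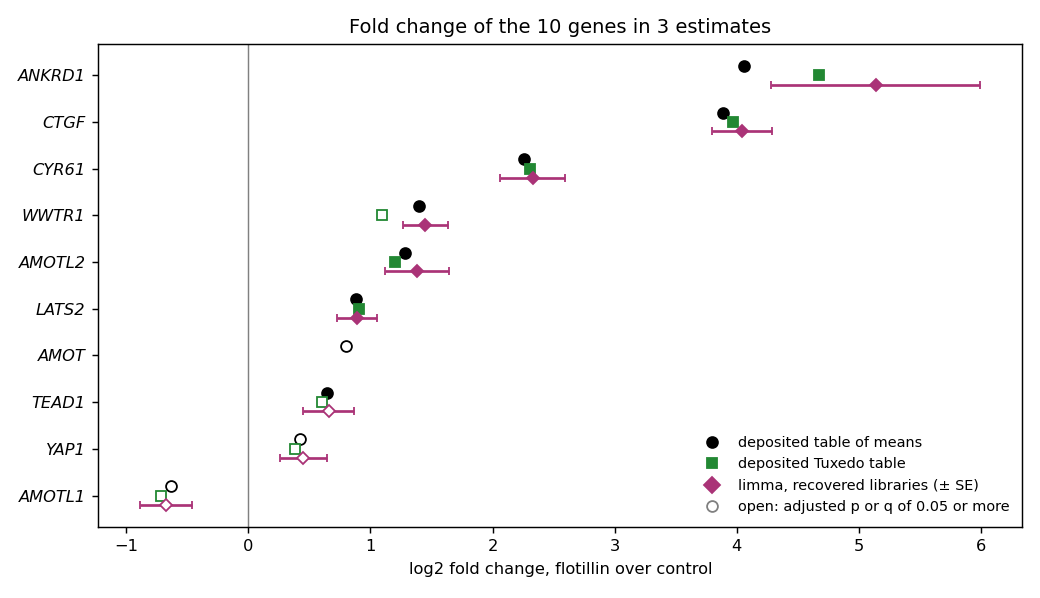
Log2 fold change of flotillin over control for the 10 genes in the deposited table of means (circles), the deposited Tuxedo table (squares) and limma on the recovered libraries (diamonds, with SE), open where the adjusted p or q was 0.05 or more. ANKRD1, CTGF and CYR61 lie furthest right, and YAP1, TEAD1 and AMOTL1 are within 0.72 of 0 in each.

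The angiomotins, junction proteins that bind YAP and TAZ, differed in direction. AMOTL2, itself a described YAP target (chromosome 3, 134070694 to 134094321), had 817, 748 and 1355 normalized counts in control and 2036, 2929 and 2466 in flotillin libraries. Control library 3 was the highest of its group, and the groups did not overlap. AMOTL2 rose from 973 ± 332 to 2477 ± 447 (SD, n = 3), or 1.29 on the log2 scale in the authors' deposited table (adjusted p = 0.000385). Limma on all recovered libraries gave an adjusted p of 0.0125, and without flotillin library 2 one of 0.0598.

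AMOTL1 (chromosome 11, 94501508 to 94609918) had 2848, 2642 and 3501 normalized counts in control and 1826, 1522 and 2351 in flotillin libraries. It was the only member with lower values in flotillin cells, and its groups did not overlap. Means were 2997 ± 449 and 1900 ± 419 (SD, n = 3), and the authors' deposited table lists -0.64 on the log2 scale (adjusted p = 0.0606). AMOTL1 passed in limma after total-read scaling (adjusted p = 0.0384), without flotillin library 3 (adjusted p = 0.0466) and without library 3 of both groups (adjusted p = 0.00979).

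AMOT, the founding angiomotin gene (chromosome X, 112017731 to 112084043), was close to undetected. It had 5, 0 and 5 reads in control and 7, 5 and 10 in flotillin libraries, and the authors' deposited table gives an adjusted p of 0.427. A difference in AMOT was not detectable at this depth. The ratio of AMOTL2 to AMOTL1 normalized counts was 0.319 ± 0.059 in control libraries and 1.36 ± 0.49 in flotillin ones (SD, n = 3). Per transcript length AMOTL2 was at 0.935 of AMOTL1 in control and at 3.53 times AMOTL1 in flotillin cells, from the authors' FPKM.

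RefSeq gives AMOTL2 more than 1 start, and the promoter of the downstream one held a single match, as CATTCC, 69 bases before the start. It is shown for the position of that match, at chr3:134374448-134374697 in GRCh38.p14 on the minus strand.
AMOTL2: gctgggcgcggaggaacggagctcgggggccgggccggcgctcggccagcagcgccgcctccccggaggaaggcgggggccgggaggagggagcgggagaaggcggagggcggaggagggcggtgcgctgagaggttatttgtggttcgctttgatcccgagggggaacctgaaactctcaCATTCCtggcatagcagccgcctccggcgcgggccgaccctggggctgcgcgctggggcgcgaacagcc

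YAP1 also had a single match, 162 bases before its start, and the windows of WWTR1, AMOTL1, AMOT and LATS2 had none. AMOTL2's upstream window had none either. The table of promoters was searched for all 10 genes, and TEAD1 and CYR61 were not matched.

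LATS2 encodes a kinase that phosphorylates YAP and TAZ and is also a described target gene of theirs (chromosome 13, 21547171 to 21635718). It had 567, 554 and 549 normalized counts in control and 1004, 1135 and 975 in flotillin libraries. Its control libraries had a coefficient of variation of 1.72%, the smallest of the 10 genes. That is less than counting error alone would give on average at these counts. LATS2 rose from 557 ± 9.5 to 1038 ± 85 (SD, n = 3), or 0.88 on the log2 scale in the authors' deposited table (adjusted p = 0.000276). Limma on all recovered libraries gave an adjusted p of 0.0111, without flotillin library 1 one of 0.0621 and without flotillin library 2 one of 0.0608. Its paralog LATS1, listed in the files as BX276089.1 and matched by its Ensembl identifier ENSG00000131023, not the processed transcript that carries the symbol LATS1 there, had 618 ± 75 and 695 ± 134 (SD, n = 3; adjusted p = 0.684 in the authors' deposited table). Per length LATS1 was the higher of the pair in control cells, at 5.44 against 4.33 FPKM, and LATS2 in flotillin cells, at 8.13 against 6.02 FPKM.

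The order of the members by FPKM changed between the lines. In control cells YAP1 was first with 28.3 FPKM and WWTR1 second with 21.7, followed by AMOTL1, CYR61, AMOTL2 and TEAD1 between 13.5 and 12.1 FPKM. LATS2 and CTGF followed at 4.33 and 3.99 FPKM. In flotillin cells CYR61 and CTGF led with 64.9 and 62.4 FPKM, then WWTR1 with 46.2, YAP1 with 37.0 and AMOTL2 with 29.0. The FPKM are group values with no error given, so neighbours this close in either order cannot be ranked.

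Most Hippo pathway genes upstream of YAP had values that did not pass the test. Of 19 kinase core and activator genes 2 rose, 2 fell and 15 did not pass, 21.1% called beside the background of 23.6%. The median log2 fold change was 0.16, against -0.04 over all genes tested and 0.11 over those with a mean of at least 100. Beside LATS2, the adaptor gene SAV1 rose, from 581 ± 34 to 844 ± 59 normalized counts (SD, n = 3; adjusted p = 0.0477 in the authors' deposited table), but limma gave SAV1 an adjusted p of 0.0531. RASSF5, whose product binds MST kinases, fell from 832 ± 238 to 86.3 ± 21.9 (SD, n = 3; adjusted p = 2.65e-19 in the authors' deposited table). WWC1, the gene of the LATS activator KIBRA, fell from 1244 ± 241 to 566 ± 90 (SD, n = 3; adjusted p = 0.000370 in the authors' deposited table). RASSF5 had a q-value of 0.163 in the authors' Tuxedo table. Limma on all libraries called 1 rise and 2 falls here. Without control library 3 it called 5 rises and 2 falls in this list, without flotillin library 1 only 1 fall, and without flotillin library 2 only 2 falls. Over all 15839 genes these fits called 6347, 981 and 1118, against 3676 with all libraries, so the background moved the same way. MST kinase genes STK3 and STK4 did not pass in the authors' deposited table, at 0.47 (adjusted p = 0.210) and -0.11 (adjusted p = 0.809) on the log2 scale.

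Across a published 22-gene YAP and TAZ target signature, which holds 5 of the members, the rises were few beyond these. Of the 21 signature genes tested 7 rose and 0 fell in the authors' deposited table, and limma on the recovered libraries also called 7 rises and 0 falls. Without the 5 members, 2 of 16 rose, and this 12.5% lay near the 11.6% of all genes that were higher in that table. The median log2 fold change of these 16 was 0.08. Limma gave 7 rises and 2 falls in the whole list both without control library 3 and without library 3 of both groups, and 9 rises and 3 falls with a term for library 3. Over all 15839 genes these fits called 6347, 6988 and 7270, against 3676 in limma as fitted. GADD45A, a growth arrest and stress gene, rose from 428 ± 83 to 1138 ± 226 normalized counts (SD, n = 3; adjusted p = 2.06e-05 in the authors' deposited table). TGFB2, a TGF-beta ligand gene, rose from 156 ± 73 to 539 ± 20 (SD, n = 3; adjusted p = 1.85e-05 in the authors' deposited table). These 2 genes were named after their values were seen. The other 14 signature genes did not pass in the authors' deposited table, with adjusted p-values of 0.0697 and above. Their log2 fold changes there lay between -0.57 (F3, the tissue factor gene) and 1.29 (CCDC80, a matrix protein gene). In the authors' Tuxedo table CCDC80 was called higher (q-value 0.00892), while limma gave it an adjusted p of 0.282.

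Among 20 further described YAP and TAZ targets, 19 were tested and 5 rose, with 0 falls. These 26.3% stood beside 23.6% of all genes called in either direction and 11.6% called higher. The median log2 fold change was 0.67, against -0.04 over all genes tested and 0.11 over those with a mean of at least 100. The authors' Tuxedo table gave 5 rises and 2 falls in this list, the falls being MYC (q-value 0.0478) and SLIT2 (q-value 0.0353), named after their values were seen. Limma called 6 rises and 2 falls without library 3 of both groups, a fit that called 6988 of all 15839 genes. The transcription factor gene GLI2 and the collagen gene COL8A1 had the largest rises, at 2.34 (adjusted p = 0.00298) and 2.09 (adjusted p = 1.11e-07) on the log2 scale in the authors' deposited table. GLI2 remained low, from 1.90 ± 1.90 to 18.3 ± 9.1 normalized counts, and COL8A1 went from 2953 ± 1286 to 13830 ± 3998 (SD, n = 3). For COL8A1 the authors' Tuxedo table gave a q-value of 0.0722, and it did not test GLI2. The other rises, named after their values were seen, were DLC1, VIM and CCND1. Limma called 4 rises in the 17 of these genes with recovered reads, and 3 rises without control library 2 or without any 1 of the flotillin libraries. Over all 15839 genes limma called 3676 with all libraries and 1607 without control library 2. Without flotillin library 1, 2 or 3 it called 981, 1118 and 2227.

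**Figure D4:**
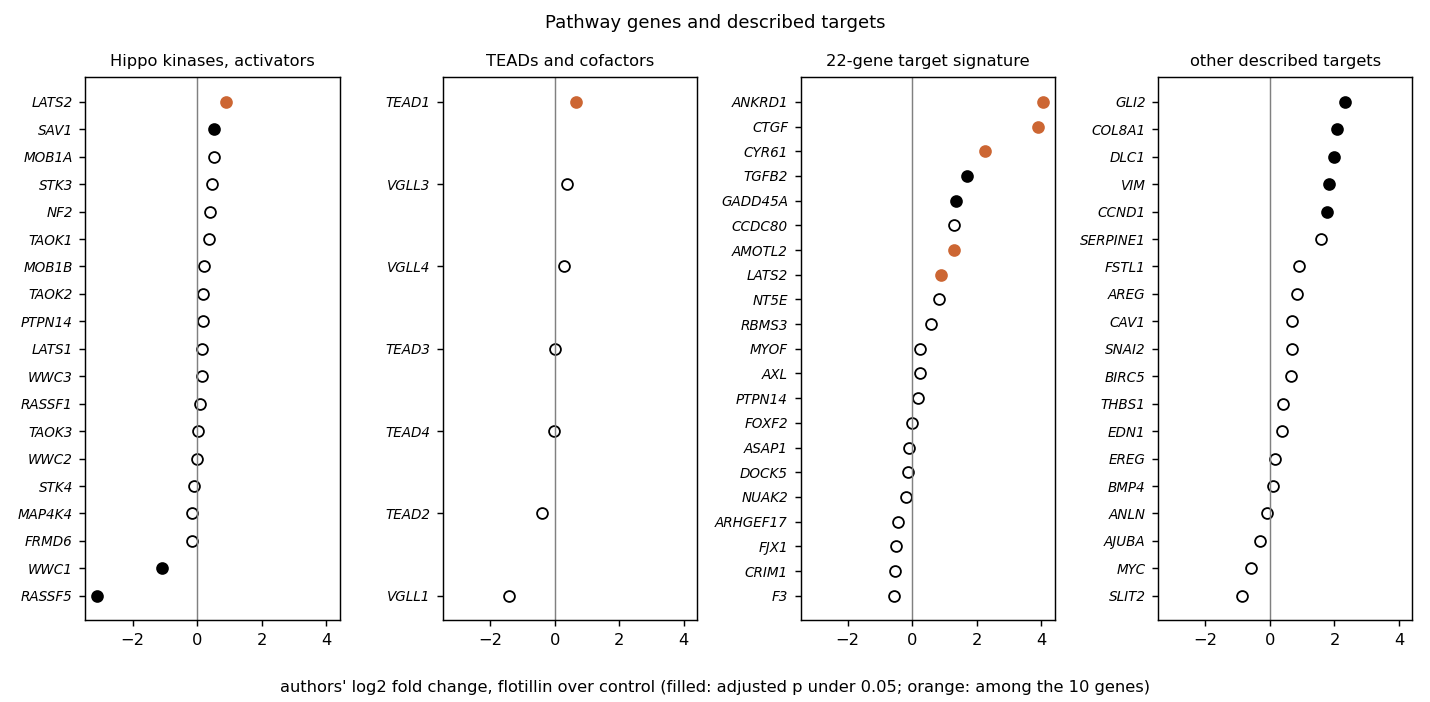
Deposited log2 fold change, flotillin against control, of each tested gene of 4 lists, filled where the adjusted p was under 0.05 and orange for the members. The falls past the threshold in these lists are RASSF5 and WWC1.

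Libraries numbered 3, those with the smallest size factor of each group, stood apart from the others. Over 11305 genes with a mean of at least 100, their deviations from the group means had a Pearson correlation of 0.511, and 33.4% of the genes were highest in library 3 of both groups. YAP1, WWTR1, TEAD1, CYR61 and AMOTL1 were highest in library 3 of both groups, and CTGF and LATS2 in neither. AMOT had 5 reads in both control library 1 and control library 3, so their order comes from the size factors alone. AMOTL2 and ANKRD1 were highest there in the control group only. TEAD1 in library 3 was 1.29 times the mean of libraries 1 and 2 in control and 1.35 times in flotillin cells, and AMOTL1 1.28 and 1.40 times. Leaving out library 3 of both groups, limma had 8 rises and 1 fall among the 9 members tested, against 6 rises with all libraries. Over all genes the same change took limma from 3676 to 6988 calls. The coefficient of variation of the members, ANKRD1 and AMOT aside, ran from 1.72% to 34.1% in control and from 5.04% to 29.9% in flotillin libraries, beside medians of 22.9% and 14.2% over these genes.

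**Figure D5:**
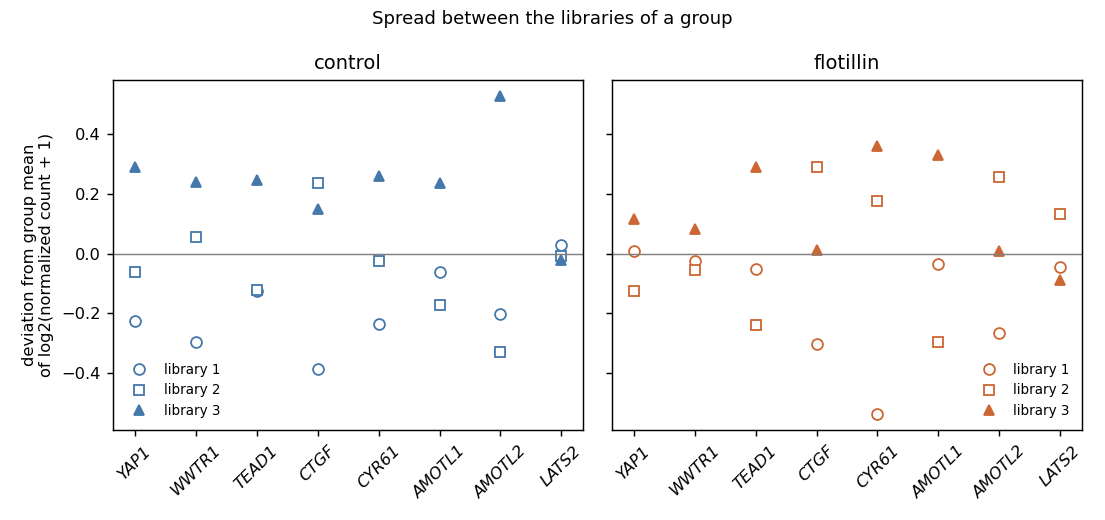
Deviation of each library from its group mean in log2(normalized count + 1), for 8 genes with at least 100 reads in each library, with library 3 as the filled triangle. Library 3 is above the group mean for all of these genes but LATS2 in both groups, although for CTGF and AMOTL2 in flotillin cells by less than 0.02.

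The genes most like CTGF over the 6 libraries, among 11297 genes with a mean of at least 100, were C17orf81, BTRC, ZNF331, TTC38 and FBXL17. Pearson correlations of log2(normalized count + 1) ran from 0.996 to 0.998. Their folds were far smaller, from 1.48 to 1.90, so the likeness is one of pattern and not of size. Among the members LATS2 (0.987), WWTR1 (0.985) and CYR61 (0.982) came nearest, and AMOTL1 was at -0.84. All these values describe 6 points in 2 groups, and the difference between the groups sets most of each correlation.

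Markers of cell identity also differed between the lines, and their counts stand beside 23.6% of all genes called (11.6% higher and 12.0% lower). Of 8 basal mammary markers 5 fell and 0 rose in the authors' deposited table. Their authors' means summed to 160113 in control and 135380 in flotillin cells. TP63 fell from 1765 to 25.6, whereas KRT5 was at 48381 and 67351 (authors' means) and did not pass. KRT6A, at 12743.9 and 26667.5 (authors' means), did not pass there either, but the authors' Tuxedo table called it higher (q-value 0.00265). Of 6 general epithelial markers 2 fell, the junction genes CDH1, from 17575 to 78.8, and EPCAM, from 4607 to 81.0 (authors' means), and the list summed to 47484 and 38720. The keratin genes of this list did not pass in the authors' deposited table, with KRT8 at 2043 and 3494, KRT7 at 18335 and 30007 and KRT18 at 4916 and 5051 (authors' means). In the authors' Tuxedo table KRT8 was higher in flotillin cells with a q-value of 0.0338. Among 10 fibroblast markers 6 were tested, of which 3 rose and 1 fell, and their authors' means summed to 5516 in control and 43930 in flotillin cells. DCN made up nearly all of the second sum, THY1 was listed at 0 in both groups, PDGFRA and COL3A1 at 0 in control, and COL1A2 had authors' means of 4.48 and 3.38. Immune markers had 3 falls among 3 tested, with CD3E listed at 0 and sums of 1117 and 208. Of endothelial markers 0 of 3 tested passed in the authors' deposited table and 0 of 2 in limma, 0 of them at an unadjusted p under 0.05 in either, with sums of 700.2 and 629.7. The part of these differences in the YAP and TEAD values was not tested.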

How the data were processed

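The authors deposited 2 tables of group values for 6 libraries, 3 per group, made with a stranded mRNA kit. Per the submitters' processing notes the tools were bcl2fastq, DESeq2 1.18.1, HTSeq 0.9.1 and HISAT2 2.1.0, with the build GRCh37. The first table gives, per the file headers, a signal, the mean normalized read count of each group, with the authors' log2 fold change, p-value and adjusted p-value. The second gives the authors' FPKM, log2 fold change, test score and q-value per the file headers; versions of its tools were not given in the sources used here. An adjusted p under 0.05 in the first table is the main call.

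Each mean is a sum of 3 whole read counts divided by 3 times a size factor, and was deposited with 15 significant digits. Size factors came from the lowest values, and whole numbers searched up to a mean of 20000 gave a single solution for 99.56% of control and 99.52% of flotillin means above 0. Of 500 altered means per group, 0 and 1 had a solution. The 172 genes that lacked a solution in either group include none of the 10 members. They hold 26.8% of the normalized counts of control and 25.2% of those of flotillin cells. Recovered libraries hold 17445130 to 18629354 reads, carry no replicate number and are numbered by falling size factor. The labels do not tie libraries to separate cultures: the p-values then reflect only how far these libraries differ, which may be technical.

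Limma 3.58.1 (R 4.3.3, trend and robust, Benjamini-Hochberg adjustment) was fitted to log2(normalized count + 1) of 15839 genes with a mean of at least 10, and tested on simulated data. Alternatives changed the pseudocount, filter, scaling, table and libraries. The members and gene lists were chosen with earlier results of these data known. From each list up to 4 genes were named: the 2 largest rises and 2 largest falls past the threshold with a mean of at least 10. List genes were matched by Ensembl identifier. The 5 most alike genes are those with the highest correlation with CTGF. Promoters are RefSeq sequences of GRCh38.p14, and gene positions are those of the deposited GRCh37 loci, counted from 1. Python 3.11.15, numpy 2.4.6, pandas 2.3.3, numba 0.67.0 and matplotlib 3.10.9 were used.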

Additional observations from a re-analysis of the deposited data

How the results depend on the processing

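CTGF, CYR61 and ANKRD1 kept their call under every alternative that tested them, and no member changed direction. ANKRD1 has no value at a mean of at least 100, and AMOT has a value only without a filter on the mean (log2 fold change 1.34, adjusted p = 0.246). No paired analysis was possible because the recovered libraries carry no replicate numbers. The term for library 3 joins libraries by the rank of their size factor and not by a label, and took the limma calls over all genes from 3676 to 7270.

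WWTR1 lost its call only in the Tuxedo table (1.09). TEAD1 lost it in the Tuxedo table (0.60) and in limma as fitted (0.66), with a pseudocount of 0.5 (0.66) or 5 (0.66), no filter (0.66), a mean of at least 100 (0.66) and total-read scaling (0.61). On leaving out 1 library it ran from 0.51 to 0.78, past the threshold only without control library 3 (0.59 without control library 1 and 0.68 without flotillin library 1). YAP1 gained a call without library 3 of both groups (0.54) and with a term for library 3 (0.45), and AMOTL1 with these (-0.72 and -0.67) and with total-read (-0.71) and upper-quartile (-0.72) scaling. On leaving out 1 library YAP1 ran from 0.34 to 0.60, AMOTL1 from -0.84 to -0.52, AMOTL2 from 1.22 to 1.65 (1.25, past no threshold, without flotillin library 2) and LATS2 from 0.83 to 0.94 (no call at 0.92 without flotillin library 1 and at 0.83 without flotillin library 2).

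The number of members past the threshold was 7, and 4 to 8 on leaving out 1 library. For the Hippo list (4 genes) it was 2 in the Tuxedo table, 7 without library 3 of both groups and 1 to 7 on leaving out 1 library. For the TEAD list (1 gene) it was 0 in the Tuxedo table and in limma as fitted, with either other pseudocount, no filter, a mean of at least 100 or total-read scaling, 2 without library 3 of both groups, and 0 to 2 on leaving out 1 library. The 22-gene signature (7 genes) had 12 with a term for library 3, 9 rises and 3 falls. Other described targets (5 genes) had 3 at a mean of at least 100 and with either other scaling, 8 without library 3 of both groups and with a term for it, and 3 to 6 on leaving out 1 library. Fewer genes enter at the stricter mean and with fewer libraries the spread is estimated from fewer values; otherwise the cause was not tested. Depth limits AMOT and the control values of ANKRD1.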
